A study of Rattus norvegicus with 6 samples.

Results

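The genes described here build the acrosome, the secretory vesicle that caps the sperm head, and equip the sperm surface to meet, bind and fuse with the egg. A fixed list of 45 gene symbols was compared with the symbols of a table of 35291 genes measured in rat testis, and 42 of the 45 were found there. Equatorin, Spaca6 and Adam29 matched no symbol, and equatorin is the protein of Eqtn, which was found. The list was taken in 3 sub-groups. These were 20 genes of acrosome formation and contents, 9 genes of sperm-egg fusion, and 13 genes of sperm ADAM proteins with their chaperones and processing factors. All 42 reached a mean of 0.5 FPKM over the rats, the level required for testing, as did 20338 genes in all. FPKM corrects fragment numbers for transcript length and library size, so levels of different genes can be set side by side.

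The RNA came from testicular tissue of 6 Sprague-Dawley rats, an outbred strain, in 2 groups of 3. The 3 diabetic rats (DM) had been fed a high-fat diet and then injected once with streptozotocin (STZ), a toxin of pancreatic beta cells, at 35 mg/kg. The 3 non-diabetic rats (Nor) were injected with citrate buffer, and whether they received the same diet is not given in the sources used here. Testes were taken 8 weeks after injection, and the study calls the rats adult males without an exact age. Sequencing depth is unknown because only FPKM were used. The values of a rat summed to between 453304 and 478211 FPKM over the whole table.

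The acrosome forms in round spermatids, where vesicles from the Golgi apparatus fuse beside the nucleus and spread into a cap. Its contents and membrane proteins are released or exposed in the acrosome reaction, after which proteins of the equatorial segment such as IZUMO1 take part in fusion with the egg membrane. Sperm ADAM proteins are folded by testis-specific chaperones of the endoplasmic reticulum and act in sperm migration and zona binding. In whole testis, fewer cells of a type and less RNA per cell cannot be told apart.

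RefSeq promoter sequences (build GRCr8, from 250 bases before to 50 bases after the gene start) matched 35 of the 42 genes by symbol. They were searched on both strands for 8 letter patterns of factors that act in spermatids (cAMP response elements, bound by CREM, and sites of the RFX and SOX kind), and all 8 are given here as counts among the 35 genes beside the share of all 27457 symbols with a promoter. The palindrome TGACGTCA was present in 1 of the 35, against 1.999% of all symbols, and its half-site TGACG, which also lies within the palindrome, in 12 (34.3%), against 23.0%. The overlapping TGACGC was present in 5 (14.3%), against 7.59%, and TGAGGTCA in 4 (11.4%), against 2.79%. GTTGCC was present in 6 (17.1%), against 13.1%, and a longer RFX-type X-box pattern that contains it in 0, against 0.546%. CCTTTGT was present in 2 (5.71%), against 6.18%, and ACAATG in 4 (11.4%), against 14.1%. No pattern was singled out beforehand, some shares lie above and others below those of all promoters, and none was tested.

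The windows below, of 28 bases each, show cAMP response element letters upstream of a fusion gene, an acrosomal protease, an acrosomal membrane protein and a chaperone. These genes were picked after it was seen which promoters held the letters. The windows are written 5′ to 3′ on the strand of the gene, with the matching letters in capitals (CGTCA is the half-site read on the other strand).
Izumo1, chr1:105227494-105227521, plus strand: tgccaccctaTGACGTCAtggtaggatg
Acr, chr7:122517685-122517712, plus strand: cataaagtgagaCGTCAgaaggctcgcc
Spaca1, chr5:53336979-53337006, minus strand: cttcgaacggggTGACGcgcagTGACGc
Clgn, chr19:41633303-41633330, minus strand: agctccagagacTGACGttgggaggacc
The matches begin at positions -99 for Izumo1, -237 for Acr, -137 and -127 for Spaca1 and -150 for Clgn from the RefSeq start. A match is a run of letters and not a measured binding site, and no binding data were used here.

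The transcripts of this group were abundant in both groups of rats and differed little in FPKM between them. FPKM is relative to the library, so a loss shared by most transcripts of a testis would not show in it. The study reported lighter testes relative to body weight and less spermatogenesis in its DM rats. Mean levels over the 6 rats ran from 0.983 FPKM for Pgap1 to 375 FPKM for Spesp1, with a median of 81.7 FPKM, against a median of 4.60 FPKM over all genes tested. Summed over the 42 genes, the level was 4472, 4296 and 4365 FPKM in the DM rats and 4453, 4514 and 4316 FPKM in the Nor rats. The sums of the groups overlapped, at means of 4378 ± 88.9 FPKM in DM and 4428 ± 101 FPKM in Nor (SD, n = 3 per group). As a share of all FPKM of a rat, the group took 0.946% ± 0.0159 in DM and 0.957% ± 0.0167 in Nor rats (SD, n = 3 each).

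**Figure D1:**
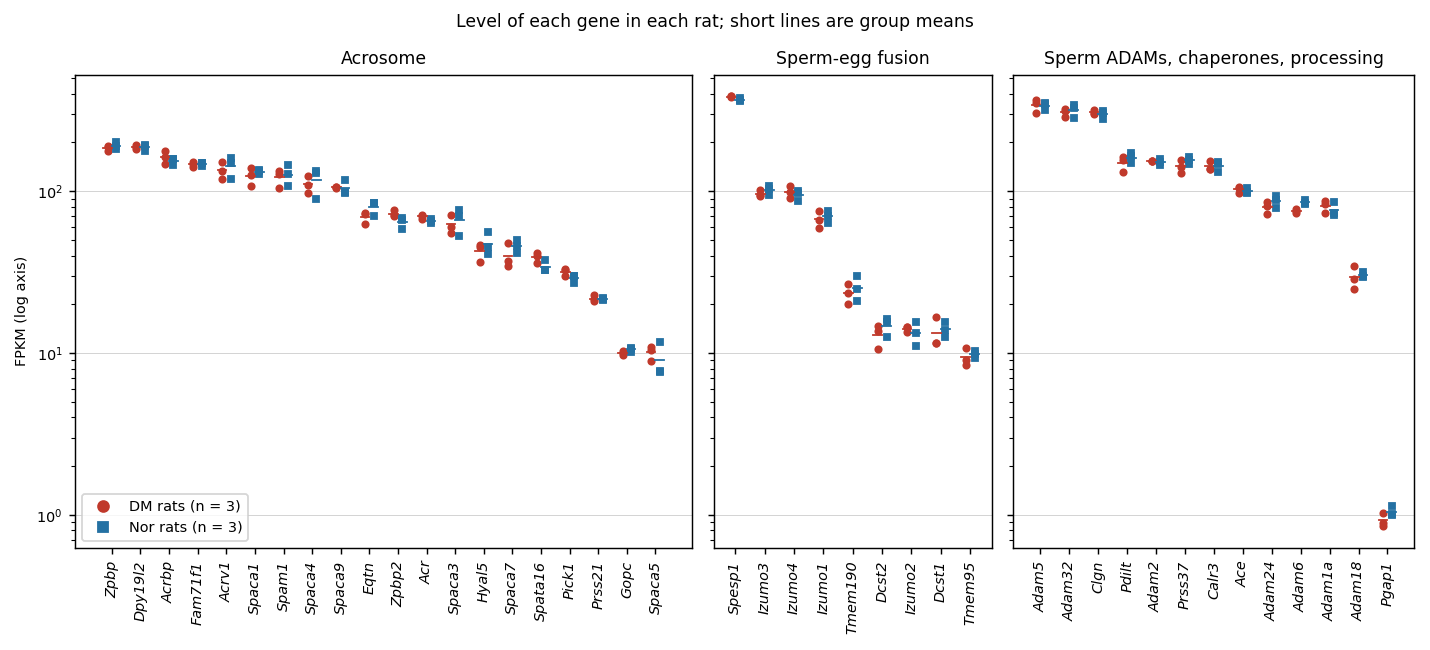
FPKM of each of the 42 genes in each rat on a log axis, in 3 panels by sub-group, with circles for DM rats, squares for Nor rats and short lines for the group means. The points of both groups lie close together for every gene, and the genes span from about 1 FPKM (Pgap1) to between 363 and 387 FPKM (Spesp1).

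In a comparison of DM with Nor rats by limma on log2(FPKM + 0.1), 0 of the 42 genes had an adjusted p-value below 0.05, where 0.0344% of all genes tested did. The study counted a gene as changed when it differed at least 2-fold (1 on the log2 scale) at a p of 0.05, read here as unadjusted, and 0 of the 42 genes met this, against 1.24% of all genes tested. An unadjusted p-value below 0.05 from limma was reached by 1 gene that was higher in DM rats, Zpbp2, and by 1 gene that was lower, Adam6. That is 2.38% of the group in each direction, where the shares over all genes tested were 2.47% higher and 4.99% lower, so neither count exceeded the background. The groups of rats did not overlap for 3 genes with higher values in DM rats (Acr, Zpbp2 and Spesp1) and for 1 gene with lower values (Adam6). Those are 7.14% and 2.38% of the group, against 4.56% and 8.42% of all genes tested.

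The estimated differences were small in both directions. Of the 42 log2 fold changes, 18 were above 0 and 24 below it, with a median of -0.048, against -0.021 over all genes tested. They ran from -0.21 (Spaca7) to 0.19 (Spata16). The 95% confidence intervals show how large a difference these rats leave possible. For 38 of the 42 genes, or 90.5%, the whole interval lay between -0.5 and 0.5 on the log2 scale. The same held for 50.9% of all genes tested and for 90.7% of the 6753 genes that averaged 10 FPKM or more, so the narrow intervals are shared with other abundant transcripts. The limits of -0.5 and 0.5 and the level of 10 FPKM were chosen after the values were seen. The lowest bound of any of the 42 intervals was -0.65 (Pgap1) and the highest was 0.59 (Spaca5), so a doubling or a halving in FPKM lay outside all of them.

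**Figure D2:**
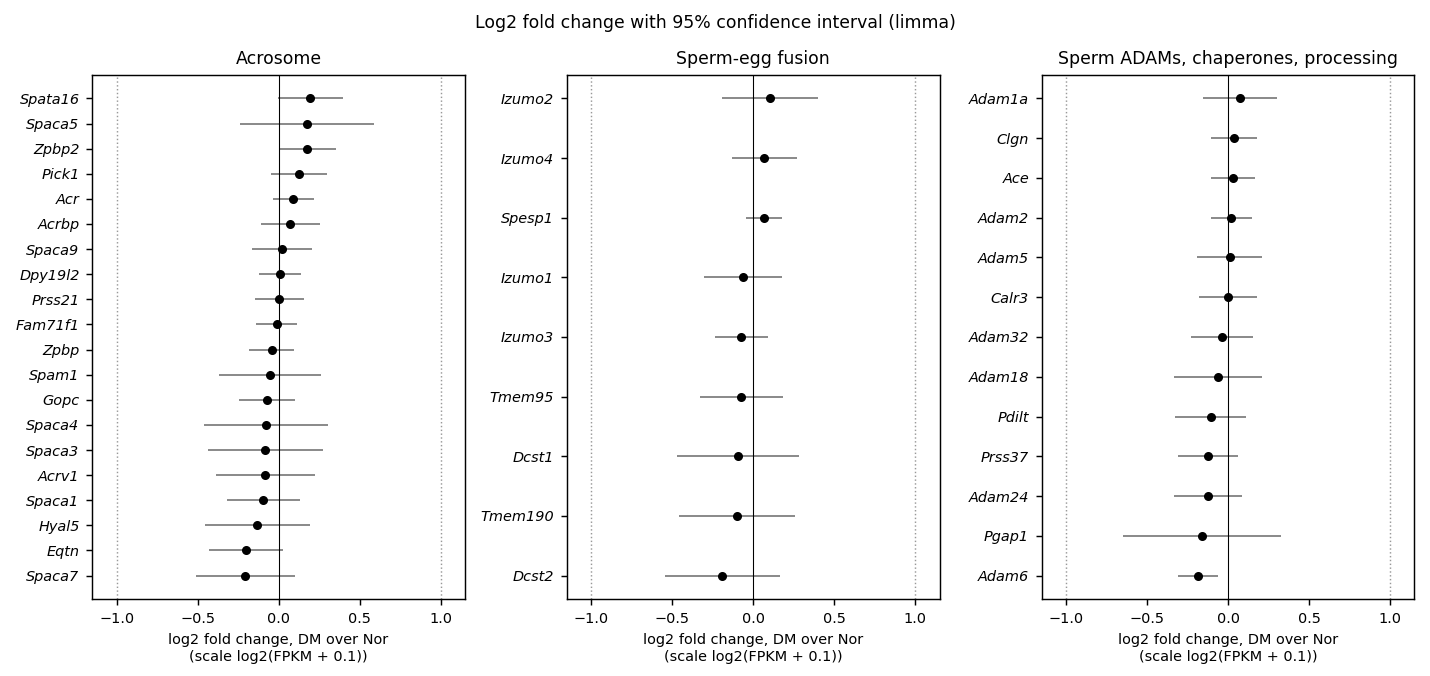
Log2 fold change of DM over Nor rats (points) with its 95% confidence interval from limma (lines), on the scale of log2(FPKM + 0.1), in 3 panels by sub-group. Dotted lines mark -1 and 1, and every interval lies between them. The interval of Adam6 and, narrowly, that of Zpbp2 do not reach 0.

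Among the genes of acrosome formation, those behind globozoospermia (round-headed sperm without an acrosome) had overlapping values in DM and Nor rats. Dpy19l2, which encodes an inner nuclear membrane protein that anchors the acrosome to the nucleus, was at 183, 194 and 188 FPKM in the DM rats and 190.2, 178 and 193 FPKM in the Nor rats. These values overlapped, and the log2 fold change was 0.0091 with an interval from -0.12 to 0.14. Spata16, which encodes a Golgi protein of the forming acrosome, was at 36.0, 39.7 and 41.5 FPKM in the DM rats and 32.5, 37.5 and 32.5 FPKM in the Nor rats. Its highest Nor rat reached into the DM range. At 0.19 (SE 0.09), its log2 fold change was the highest of the group (limma, adjusted p = 0.681, two-sided exact permutation p = 0.2). The unadjusted p-value of Spata16 from limma was 0.0562, and it was below 0.05 in 6 of the 15 alternative fits.

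Gopc and Pick1 encode PDZ-domain proteins of vesicle traffic from the Golgi apparatus to the acrosome. Gopc was at 10.0, 9.70 and 10.3 FPKM in the DM rats and 10.6, 10.2 and 10.8 FPKM in the Nor rats. Pick1 was at 33.2, 32.4 and 29.7 FPKM in the DM rats and 29.9, 30.0 and 27.2 FPKM in the Nor rats. Both pairs of ranges overlapped. Fam71f1, which is needed for acrosome formation, was at 151, 147 and 141 FPKM in the DM rats and 149.8, 149.6 and 143 FPKM in the Nor rats. Spaca1, an acrosomal membrane protein that shapes the acrosome, was at 140, 107 and 126 FPKM in the DM rats and 133, 135 and 128 FPKM in the Nor rats. Its lowest value, in DM 2, stood below the other rats, and DM 1 was the highest of all 6.

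Of the zona-binding proteins of the acrosomal matrix, Zpbp was among the most abundant genes of the sub-group. It was at 189, 178 and 189 FPKM in the DM rats and 200.1, 182 and 190.2 FPKM in the Nor rats, which overlapped. Its paralog Zpbp2 was at 71.2, 70.2 and 76.1 FPKM in the DM rats and 66.1, 58.4 and 68.2 FPKM in the Nor rats, so that every DM rat was above every Nor rat. The means of Zpbp2 were 72.5 ± 3.17 FPKM in DM and 64.2 ± 5.19 FPKM in Nor (SD, n = 3 per group). The log2 fold change of Zpbp2 was 0.18 (SE 0.07), a ratio of 1.13. Its unadjusted p-value of 0.0492 from limma became 0.667 after adjustment, and the exact permutation test (two-sided) gave p = 0.1, the smallest that 3 rats against 3 allow. With 1 rat left out in turn, the unadjusted p-value of Zpbp2 ran from 0.0304, without Nor 3, to 0.150, and it was at or above 0.05 without each of the other 5 rats. It was 0.0872 after rescaling to TPM and 0.111 without the trend.

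Acrosin, the serine protease of the acrosome, and its binding partner differed little. Acr was at 71.3, 67.7 and 70.4 FPKM in the DM rats and 65.7, 67.2 and 63.7 FPKM in the Nor rats, groups that did not overlap although the means differed by a ratio of only 1.06. The log2 fold change of Acr was 0.09 with an interval from -0.03 to 0.22 (limma, adjusted p = 0.790). Acrbp, which binds proacrosin, was at 176, 162 and 148 FPKM in the DM rats and 159, 158 and 145 FPKM in the Nor rats, which overlapped. Prss21, which encodes testisin, a membrane-anchored serine protease of sperm, was at 22.7, 20.9 and 21.5 FPKM in the DM rats and 21.2, 21.6 and 22.0 FPKM in the Nor rats. The interval of Prss21 ran from -0.15 to 0.15 on the log2 scale.

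Spam1 and Hyal5 encode sperm hyaluronidases, which loosen the matrix of the cumulus cells around the egg. Spam1 was at 127, 104 and 134 FPKM in the DM rats and 145, 127 and 107 FPKM in the Nor rats. Hyal5 was at 46.8, 36.7 and 45.2 FPKM in the DM rats and 55.6, 45.1 and 40.6 FPKM in the Nor rats. Both genes were highest in Nor 1 and lowest in DM 2, with Nor 3 next to lowest. They are paralogs, and how reads common to them were assigned is not given.

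Other acrosomal antigens varied between rats of the same group. Acrv1, the acrosomal matrix antigen SP-10, was at 151, 119 and 134 FPKM in the DM rats and 150.1, 160.4 and 119 FPKM in the Nor rats. Spaca4, a surface protein of the acrosomal membrane with a role in zona binding, was at 124, 109 and 97.2 FPKM in the DM rats and 129, 133 and 89.5 FPKM in the Nor rats. Eqtn was at 72.9, 62.5 and 71.8 FPKM in the DM rats and 84.2, 84.3 and 70.2 FPKM in the Nor rats. The 2 highest rats for Eqtn were Nor 1 and Nor 2, while Nor 3 lay within the DM range. The log2 fold change of Eqtn was -0.20 with an interval from -0.43 to 0.02 (limma, adjusted p = 0.716).

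Spaca3 and Spaca5 encode lysozyme-like proteins of the acrosome. Spaca3 was at 71.5, 55.3 and 60.4 FPKM in the DM rats and 76.2, 70.3 and 52.8 FPKM in the Nor rats. Spaca5 was at 10.9, 10.5 and 8.91 FPKM in the DM rats and 7.79, 11.7 and 7.68 FPKM in the Nor rats. For both, the extremes of the Nor group enclosed all 3 DM rats. Spaca9 was at 106, 107 and 104 FPKM in the DM rats and 98.9, 117 and 97.7 FPKM in the Nor rats, again with the DM rats inside the Nor range. Spaca7, an acrosomal protein, was at 37.2, 34.5 and 47.9 FPKM in the DM rats and 41.5, 45.8 and 49.6 FPKM in the Nor rats. DM 3 stood among the Nor rats, and the other DM rats below them. The means of Spaca7 were 39.9 ± 7.11 FPKM in DM and 45.6 ± 4.07 FPKM in Nor (SD, n = 3 per group), and its log2 fold change of -0.21 (SE 0.13) was the lowest of the group (limma, adjusted p = 0.810, two-sided exact permutation p = 0.3). Without DM 3 the log2 fold change of Spaca7 was -0.34, with an unadjusted p-value of 0.0102 from limma and an adjusted one of 0.5004.

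The groups overlapped for 18 of the 20 acrosome genes, and for 17698 of the 20338 genes tested in all. Over the 20 acrosome genes the median log2 fold change was -0.027, with 9 values above 0 and 11 below. With 1 rat left out in turn that median ran from -0.046 (without DM 1) to 0.0098 (without DM 3), so its sign is not fixed.

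Among the genes of sperm-egg fusion, Izumo1, whose product binds the egg receptor JUNO, was at 74.9, 59.5 and 66.1 FPKM in the DM rats and 75.6, 70.4 and 63.3 FPKM in the Nor rats. The groups overlapped over most of their ranges. Its means were 66.9 ± 7.72 FPKM in DM and 69.8 ± 6.18 FPKM in Nor (SD, n = 3 per group), with a log2 fold change of -0.06 and an interval from -0.30 to 0.18 (limma, adjusted p = 0.935). Its upstream palindrome is printed above.

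Of the other members of the IZUMO family, Izumo3 and Izumo4 had similar levels, far above that of Izumo2. Izumo3, which also acts in acrosome formation, was at 95.3, 92.8 and 102 FPKM in the DM rats and 108, 94.2 and 104 FPKM in the Nor rats. Izumo4 was at 108, 98.5 and 91.0 FPKM in the DM rats and 97.3, 99.9 and 86.5 FPKM in the Nor rats. Izumo2 was lower, at 14.5, 13.4 and 14.5 FPKM in the DM rats and 13.3, 15.5 and 11.1 FPKM in the Nor rats. The log2 fold change of Izumo2, 0.10 (SE 0.13), was the highest of the fusion genes (limma, adjusted p = 0.919, two-sided exact permutation p = 0.6). For each of the 4 Izumo genes the groups overlapped.

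Tmem95, Dcst1 and Dcst2 encode sperm membrane proteins that fusion or egg binding requires, and all 3 had low levels within this group. Tmem95 was at 10.7, 8.43 and 9.01 FPKM in the DM rats and 10.3, 9.89 and 9.31 FPKM in the Nor rats. Dcst1 was at 16.7, 11.5 and 11.5 FPKM in the DM rats and 15.5, 13.9 and 12.6 FPKM in the Nor rats. DM 1 was the highest of the 6 rats for both. Dcst2 was at 14.7, 13.6 and 10.5 FPKM in the DM rats and 16.1, 15.6 and 12.5 FPKM in the Nor rats, and within each group replicate 3 was the lowest. The log2 fold change of Dcst2, -0.19 (SE 0.15), was the lowest of the fusion genes (limma, adjusted p = 0.855, two-sided exact permutation p = 0.4). It ran from -0.31 (without Nor 3) to -0.05 (without DM 3) with 1 rat left out, and without DM 3 that of Izumo3, at -0.11, was lower.

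Spesp1, which encodes a protein of the equatorial segment where fusion begins, had the highest mean of the 42 genes and the smallest spread between rats. It was at 385, 387 and 379.6 FPKM in the DM rats and 363, 365 and 374 FPKM in the Nor rats. Every DM rat was above every Nor rat, with means of 384 ± 3.76 FPKM in DM and 367 ± 6.08 FPKM in Nor (SD, n = 3 per group). The difference was a ratio of 1.05, with a log2 fold change of 0.06 and an interval from -0.05 to 0.17 (limma, adjusted p = 0.842). Tmem190, a membrane protein of the acrosomal region, was at 26.8, 23.5 and 20.1 FPKM in the DM rats and 24.7, 29.9 and 21.0 FPKM in the Nor rats, which overlapped. Over the 9 fusion genes the median log2 fold change was -0.07, with 3 values above 0 and 6 below. With 1 rat left out in turn that median ran from -0.15 (without DM 1) to -0.0011 (without DM 2).

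Of the sperm ADAM genes, Adam1a and Adam2 encode the subunits of fertilin. Adam2 was at 155, 153 and 153 FPKM in the DM rats and 152, 158 and 144 FPKM in the Nor rats. Adam1a was at 86.8, 82.7 and 73.0 FPKM in the DM rats and 71.4, 86.2 and 72.9 FPKM in the Nor rats. The groups overlapped for both, and the log2 fold change of Adam1a, 0.07 (SE 0.10), was the highest of the 13 genes (limma, adjusted p = 0.924, two-sided exact permutation p = 0.5).

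Adam6 was the gene with the lowest p-value of all 42. It was at 72.8, 77.1 and 75.4 FPKM in the DM rats and 84.6, 83.6 and 88.0 FPKM in the Nor rats. Each DM rat was below each Nor rat, with means of 75.1 ± 2.18 FPKM in DM and 85.4 ± 2.29 FPKM in Nor (SD, n = 3 per group). The log2 fold change of Adam6 was -0.19 (SE 0.05) and an interval from -0.31 to -0.06, a ratio of 0.879. Its unadjusted p-value from limma was 0.00953 and its adjusted p-value 0.492, while the exact permutation test (two-sided) gave p = 0.1, the smallest possible. In all 15 alternative fits the log2 fold change of Adam6 stayed between -0.21 and -0.16, with unadjusted p-values from 0.00854 to 0.0471 and adjusted p-values from 0.326 to 0.847.

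Adam5 and Adam32 were, after Spesp1, the genes with the highest means. Adam5 was at 302, 368 and 348 FPKM in the DM rats and 315, 344 and 349 FPKM in the Nor rats. Adam32 was at 322, 313 and 288 FPKM in the DM rats and 284, 325 and 340.1 FPKM in the Nor rats. No order of the groups was visible in either. Adam24 was at 85.2, 72.2 and 81.2 FPKM in the DM rats and 93.2, 88.0 and 78.8 FPKM in the Nor rats. Adam18 was at 28.5, 25.001 and 34.5 FPKM in the DM rats and 31.6, 29.5 and 30.0 FPKM in the Nor rats. Both overlapped. Several ADAM genes are paralogs of each other, and the assignment of reads that fit more than one of them is not given.

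The chaperones that fold sperm ADAM proteins overlapped between the groups. Clgn, which encodes calmegin, was at 306, 298 and 316 FPKM in the DM rats and 303, 279.9 and 313 FPKM in the Nor rats. Calr3, which encodes calsperin, was at 138, 138 and 153 FPKM in the DM rats and 131, 152 and 146 FPKM in the Nor rats. The means of Calr3 were 143 ± 8.67 FPKM in DM and 143 ± 10.9 FPKM in Nor (SD, n = 3 per group), and its interval ran from -0.18 to 0.18 on the log2 scale. Pdilt, a disulfide isomerase-like partner of calmegin, was at 163, 132 and 155 FPKM in the DM rats and 171, 164 and 149 FPKM in the Nor rats. DM 2 was the lowest, and the other DM rats lay within the Nor range.

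The remaining processing factors overlapped as well. Prss37, a protease-like protein needed for maturation of the sperm surface, was at 130.2, 156 and 142 FPKM in the DM rats and 147, 162 and 156 FPKM in the Nor rats. Its log2 fold change was -0.12 with an interval from -0.31 to 0.06. Ace was at 105, 106 and 97.4 FPKM in the DM rats and 99.0, 105 and 98.05 FPKM in the Nor rats. These are totals of the gene, which has a testis-specific isoform and a somatic one. Pgap1, which acts on the anchors of GPI-linked proteins, was the lowest of the 42, at 0.890, 1.03 and 0.847 FPKM in the DM rats and 0.994, 1.13 and 1.01 FPKM in the Nor rats. Over the 13 genes the median log2 fold change was -0.04, with 6 values above 0 and 7 below, and the median ran from -0.062 (without Nor 1) to -0.013 (without Nor 3) with 1 rat left out.

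Rats of both groups stood at the extremes. Of the 42 genes, 15 had their lowest value in DM 2 and 11 in Nor 3, while 10 had their highest in DM 1, 10 in Nor 2 and 9 in Nor 1. Relative to the mean of the 6 rats, the median log2 deviation of the 42 genes was 0.05, -0.03 and -0.02 in the DM rats and 0.02, 0.05 and -0.07 in the Nor rats. The fusion genes had the widest such deviations, 0.14 in DM 1 against -0.11 in Nor 3. Within groups, the standard deviation of a gene between rats had a median of 0.116 on the log2 scale, from 0.0196 (Spesp1) to 0.265 (Spaca5). The median was 0.176 over all genes tested and 0.104 over genes that averaged 10 FPKM or more.

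**Figure D3:**
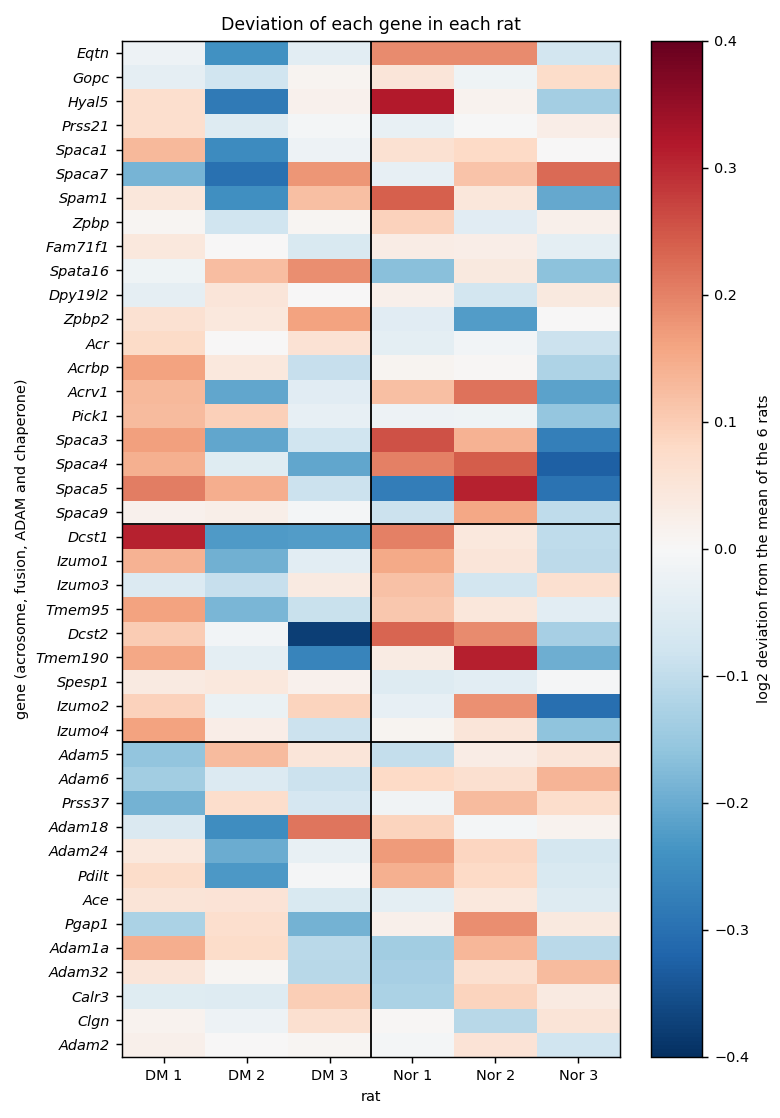
Log2 deviation of each gene (rows) in each rat (columns) from the mean of the 6 rats, red above and blue below, with sub-groups divided by horizontal lines and the groups of rats by a vertical line. Among the acrosome and fusion genes, blue cells gather in DM 2 and Nor 3, which belong to different groups. The ADAM and chaperone genes do not share this, with median deviations of 0.002 in DM 2 and 0.037 in Nor 3. The columns of the groups show no common contrast.

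Other genes of the same processes were taken from lists that hold 73 symbols in all. Of these, 62 were in the table and 58 were tested. An unadjusted p-value below 0.05 from limma was reached by 0 of them with higher values and by 3 with lower values in DM rats, or 5.17%, against 4.99% of all genes tested. Their median log2 fold change was 0.0039. Among other acrosome genes, 35 were tested and 0 had an unadjusted p-value below 0.05. Crisp2, an abundant protein of the acrosome and tail, was at 1899 FPKM in the DM and 1865 FPKM in the Nor rats, and Ccdc136 at 683 and 643 FPKM, as means of 3 rats. Over the 58 related genes, the groups did not overlap for 2 with higher values in DM rats, Ccdc136 among them, and for 3 with lower values. Those are 3.45% and 5.17%, against 4.56% and 8.42% of all genes tested.

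Of 8 other fusion genes tested, 1 (12.5%) was lower at an unadjusted p-value below 0.05, against 4.99% of all genes tested. This was Cd81, a tetraspanin that many somatic cells also make. It was at 16.4, 15.3 and 19.7 FPKM in the DM rats and 22.7, 27.3 and 23.0 FPKM in the Nor rats, which did not overlap (log2 fold change -0.51, adjusted p = 0.399). The 2 highest genes of that list were Tssk6, a spermatid kinase, with a log2 fold change of -0.01, and Spata46, with 0.01.

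In the list of other sperm ADAM genes and their processing, 19 genes were tested. An unadjusted p-value below 0.05 was reached by 2 (10.5%), both lower, against 4.99% lower among all genes tested. Prss55, a testis serine protease of the pathway that matures ADAM3, was at 47.3, 49.7 and 42.8 FPKM in the DM rats and 58.1, 67.0 and 60.9 FPKM in the Nor rats. The groups did not overlap, and the log2 fold change was -0.41 (SE 0.08) (unadjusted p = 0.00138 and adjusted p = 0.289). Cmtm8 was at 1.10, 1.503 and 1.11 FPKM in the DM rats and 1.41, 2.36 and 2.41 FPKM in the Nor rats, with an adjusted p of 0.648 from limma. Adam3a, whose product is the central ADAM of sperm migration, was at 669, 711 and 769.6 FPKM in the DM rats and 719, 662 and 687 FPKM in the Nor rats. Adam3a and Cmtm2a, the 2 highest of that list, had log2 fold changes of 0.05 and 0.01.

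Markers of the cell types of the testis were read beside the group. Over all genes tested, 2.47% were higher and 4.99% lower at an unadjusted p-value below 0.05 from limma. Of 14 other spermatid genes and 8 spermatocyte genes, 0 reached that threshold, with medians of -0.01 and 0.01 in log2 fold change. Of 6 spermatogonial genes tested, Uchl1 was higher (0.34) and Kit lower (-0.30), and of 9 Sertoli genes tested Inha was lower (-0.34), each without an adjusted p-value below 0.05. Leydig cell genes had a median of -1.24, and 6 of 7 were lower at an unadjusted p-value below 0.05 (Star, Cyp11a1, Cyp17a1, Hsd17b3, Insl3 and Lhcgr). Of these, Cyp17a1 also had an adjusted p-value below 0.05. Nr5a1, the other of the 7, had a log2 fold change of -0.016. The summed level of the 7 Leydig genes was 31.2 to 60.1 FPKM in the DM rats and 87.3 to 121 FPKM in the Nor rats. Macrophage genes had a median of -0.78, with 5 of 8 lower at that threshold (Cd68, Csf1r, Cd74, C1qa and Ptprc), and sums of 31.1 to 36.3 FPKM against 39.4 to 45.2 FPKM. None of the 8 had an adjusted p-value below 0.05. The groups overlapped for Mrc1, the most abundant of them (-0.06), Adgre1 (-0.13) and Cd163 (-0.23). Of 7 peritubular and vascular genes and 3 erythrocyte entries tested, 0 reached that threshold. Of 6 epididymal genes 5 lay below the level required for testing, and Spink8, the other one, had a log2 fold change of 0.10. The sum of the spermatid genes overlapped between the groups, at 15298 to 16764 FPKM in the DM rats and 14684 to 16858 FPKM in the Nor rats. Whether the lower levels of most Leydig and several macrophage markers have a part in the values of Adam6, Zpbp2, Cd81 and Prss55 was not tested.

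**Figure D4:**
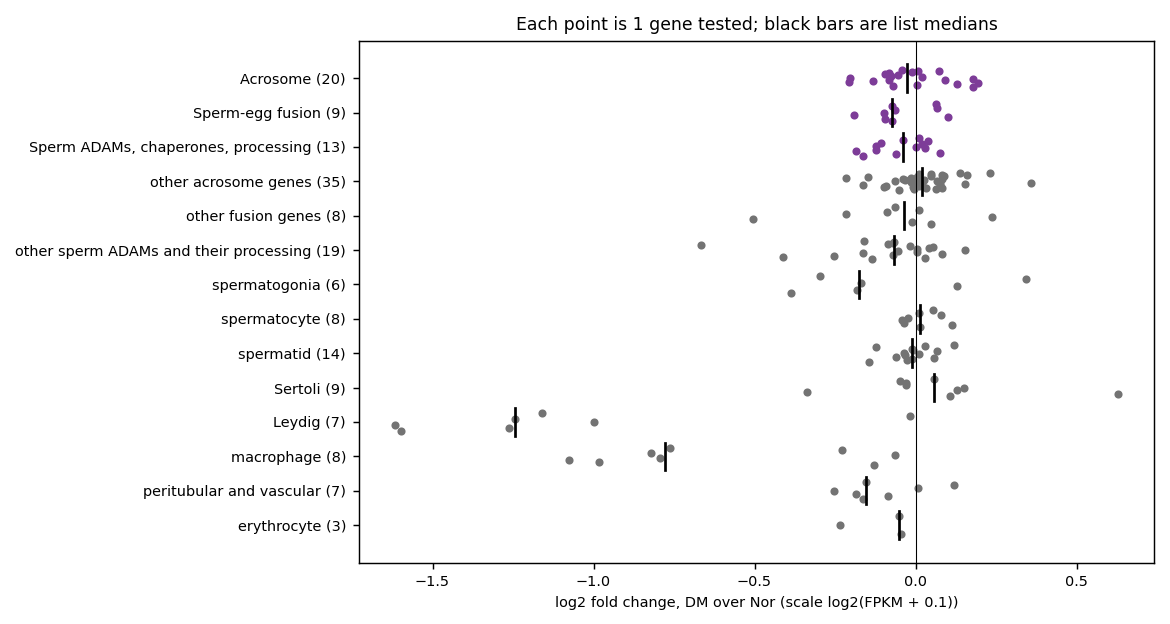
Log2 fold change of DM over Nor rats for each gene tested (points) by list, with the number of genes in parentheses and the list median as a black bar. The 3 sub-groups described here (purple) lie between -0.21 and 0.19, while most Leydig genes and 5 of the 8 macrophage genes lie below -0.7.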

How the data were processed

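RNA-Seq of testis from 3 DM and 3 non-diabetic (Nor) rats was used, grouped by the sample labels. The authors checked reads with FastQC, compared them with rRNA using BWA, aligned reads to the genome by STAR and used StringTie for assembly. Per gene, the authors deposited FPKM. Tool versions and the genome build are not given in the sources used here, nor is depth in reads, so precision rests on the spread between 3 rats. No pairing of the rats is given.

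Genes averaging 0.5 FPKM or more were put on the scale log2(FPKM + 0.1), and groups were compared with limma 3.58.1 (eBayes with trend, two-sided, Benjamini-Hochberg over all genes tested) in R 4.3.3. This scale understates changes of low genes. The study screened transcripts with DESeq2, which needs counts and was not run here. Exact permutation tests used scipy 1.17.1 in Python 3.11.15. The fit was run on simulated data with independent noise for each gene and changes of at least 2-fold. That run does not show how well smaller differences, such as those of the genes described here, are found.

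The genes and lists were chosen with earlier results of these data known, and the promoter patterns and windows during the work. All genes of the group are named. Unadjusted and adjusted p-values from limma are given for genes of the group with an unadjusted p-value below 0.05. For the highest and lowest log2 fold change of each sub-group, the standard error, the adjusted p-value and the exact permutation p-value are given. Of the other lists, genes with an unadjusted p-value below 0.05 are named, with the 2 highest of each list of related genes. Acrv1, also a spermatid marker, was counted in the acrosome group only. No set test was run. As alternatives, the pseudocount was set to 1 or 0.01, the filter dropped or raised to 1 FPKM, and fits were made with TPM, median-ratio scaling, no trend, a replicate block, protein-coding genes only (RefSeq, GRCr8) and leaving out each rat.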

Additional observations from a re-analysis of the deposited data

How the results depend on the processing

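In each of the 15 alternatives 0 of the genes tested met the study's fold criterion and 0 fell below 0.05 after adjustment by limma, and the lowest adjusted p-value in any of them was 0.326 (Adam6, protein-coding genes only). Pgap1 was not tested at a mean of 1 FPKM, nor Fam71f1 among protein-coding genes, so these alternatives held 41 of the genes. The count of 1 higher gene at an unadjusted p-value below 0.05 became 2 with median-ratio scaling, 2 with protein-coding genes only and 0 with eBayes without the trend, and ranged from 0 to 2 with each rat left out. It was 0 without DM 2, DM 3 or Nor 1 and 2 without Nor 2 (Spata16 and Spaca5). It stayed 1 with TPM and without DM 1, with Spata16 in place of Zpbp2. The count of 1 lower gene ranged from 1 to 2, and was 2 without DM 1, DM 2, DM 3 or Nor 3. The median log2 fold change of the 42 genes ranged from -0.058 to 0.0013 with each rat left out, so its sign is not fixed, and that of the acrosome genes was 0.0024 with median-ratio scaling. With the replicate number as a block, 2 of the 42 genes were higher (Zpbp2 and Spata16) and 3 lower (Adam6, Prss37 and Dcst2) at that threshold. In the same fit 604 of all 20338 genes tested were higher and 1047 lower. The genes past the study's criterion over the whole table were 284 with the block in place of 253. Rats with the same number correlated in their deviations at 0.106, 0.0153 and 0.0979. DM 1 and DM 3 correlated best with the Nor rat of their own number, and DM 2 did not. With 3 rats in a group and values this low, the correlations cannot decide whether the numbers pair the rats.

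Over all genes tested, 502 higher and 1015 lower genes at an unadjusted p-value below 0.05 became 724 and 816 with median-ratio scaling. Among 12242 protein-coding genes they were 279 and 809. With each rat left out they ranged from 319 to 536 and from 661 to 1070. The 253 genes past the criterion became 91 with a pseudocount of 1, 621 without a filter and 85 among protein-coding genes. The 7 genes at an adjusted p-value below 0.05 became 3 without a filter, 12 without the trend, 4 with the block, 36 among protein-coding genes and 0 to 11 with each rat left out.

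The sign of the log2 fold change held for 24 genes in each alternative that tested them and changed for 18. Rescaling to TPM gave -0.00065 for Calr3, and median-ratio scaling gave 0.018 for Fam71f1. With each rat left out, the range was -0.21 to 0.0048 for Acrv1, -0.18 to 0.048 for Adam18, -0.013 to 0.053 for Adam2, -0.11 to 0.016 for Adam32, -0.050 to 0.093 for Adam5 and -0.062 to 0.045 for Calr3. It was -0.0079 to 0.074 for Clgn, -0.025 to 0.031 for Dpy19l2, -0.035 to 0.016 for Fam71f1, -0.15 to 0.016 for Izumo1, -0.023 to 0.22 for Izumo2 and -0.028 to 0.032 for Prss21. It was -0.18 to 0.0085 for Spaca1, -0.24 to 0.026 for Spaca3, -0.26 to 0.025 for Spaca4, -0.025 to 0.10 for Spaca9, -0.17 to 0.056 for Spam1 and -0.22 to 0.031 for Tmem190. The cause was not tested for any of these.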
